A study of Homo sapiens with 36 samples.

Results

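Respiratory complex I was followed here through 53 of the 11828 genes of a deposited table of treatment effects in 2 cancer cell lines. The members were the genes whose symbol starts with NDUF, together with ACAD9, ECSIT, TIMMDC1, TMEM126B, FOXRED1 and NUBPL. The readthrough symbol NDUFC2-KCTD14 was left out. The rule used symbols and no measured value. It gave 39 subunits by name and 14 assembly factors (the NDUFAF genes and the 6 added symbols). Of the 39, 37 are subunits of complex I. The other 2, NDUFA4, now known as a subunit of complex IV, and its paralog NDUFA4L2, carry the name only.

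Complex I, the NADH:ubiquinone oxidoreductase, is the entry point of electrons from NADH into the mitochondrial respiratory chain. Its peripheral arm holds the N module, which oxidises NADH, and the Q module, which passes the electrons through iron-sulfur clusters to ubiquinone. Its membrane arm pumps protons and is built around subunits encoded by mitochondrial DNA. Assembly factors join modules, modify subunits or deliver clusters, and leave before the complex is mature. The MCIA complex (ECSIT, NDUFAF1, ACAD9, TMEM126B and TIMMDC1) builds part of the membrane arm, and another group of factors builds the Q module.

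Transcripts were measured by RNA sequencing of poly-T-selected mRNA, and 16 of the series' 36 libraries form the experiment behind the table. Of the lines, A375 comes from a melanoma with mutant BRAF, and HCC827 from a lung adenocarcinoma with mutant EGFR. Per line there were 2 libraries each of cells given 6-thio-dG with the targeted drug (the combination), of cells given 6-thio-dG alone, of cells given the targeted drug alone and of DMSO controls, all after 3 days. The targeted drug was PLX4720, a BRAF inhibitor, in A375 and osimertinib, an EGFR inhibitor, in HCC827; 6-thio-dG is a nucleoside analog that telomerase builds into telomeric DNA. The other 20 libraries, a time course, were not analysed here. Each treatment was therefore seen in 1 line of each cancer, and the labels do not say whether the 2 libraries came from separate cultures.

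The authors' deposited table gives, for 6-thio-dG against control and for the combination against the targeted drug in each line, each gene's log2 fold change with its p-value, raw and adjusted. A positive value means higher with 6-thio-dG or with the combination. The table has 0 columns of values per library, so levels, replicate spread, sequencing depth and the lines' defining marker levels could not be given, and errors below are standard errors (SE) worked back from the fold changes and p-values. The header calls the arm set against 6-thio-dG "RNA", read here as the control, and the other arm of the combination comparison "TKI1", read as the targeted drug; TKI-1 is also the name of a single library, and which was meant is not stated. A gene is called risen or fallen at the authors' adjusted p under 0.05. In bulk RNA, a lower share of cells with a transcript and less of it per cell cannot be told apart.

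Adding 6-thio-dG to the targeted drug was followed by more rises than falls among complex I members in both lines. In A375, 29 members rose and 6 fell with the combination; the rises were 19 of the 39 subunits (48.7%) and 10 of the 14 assembly factors (71.4%). In HCC827, 25 rose and 3 fell, and the rises were 23 subunits (59.0%) and 2 assembly factors (14.3%). Of all genes listed, 31.2% rose and 29.3% fell in the A375 combination (60.5% called in all), and 17.3% rose and 17.9% fell in the HCC827 combination (35.2% called in all). The members' rises, 54.7% in A375 and 47.2% in HCC827, were above these shares and their falls, 11.3% and 5.66%, below them.

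With 6-thio-dG alone the counts lay closer to the table as a whole. In A375, 16 members (30.2%) rose and 14 (26.4%) fell, against 31.3% and 33.7% of all genes (65.0% called). In HCC827, 9 members (17.0%) rose and 4 (7.55%) fell, against 14.8% and 14.4% of all genes (29.2% called). NDUFB2, a membrane-arm subunit, was the only member called in none of the 4 comparisons; 8.31% of all genes were. ECSIT was the only member that rose in all 4, a pattern that 0.313% of all genes showed, and no member fell in all 4. Values moved with GC content throughout the table; where the call of a member named below is lost once that trend is removed, the value without the trend is given beside it as the GC-adjusted value. Differences between 2 comparisons are given ± SE on the log2 scale; they were called by a two-sided z test on the implied errors, which is approximate at 2 libraries a group, with Benjamini-Hochberg adjustment over all genes and a threshold of 0.05, and all those printed with an SE were called.

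**Figure D1:**
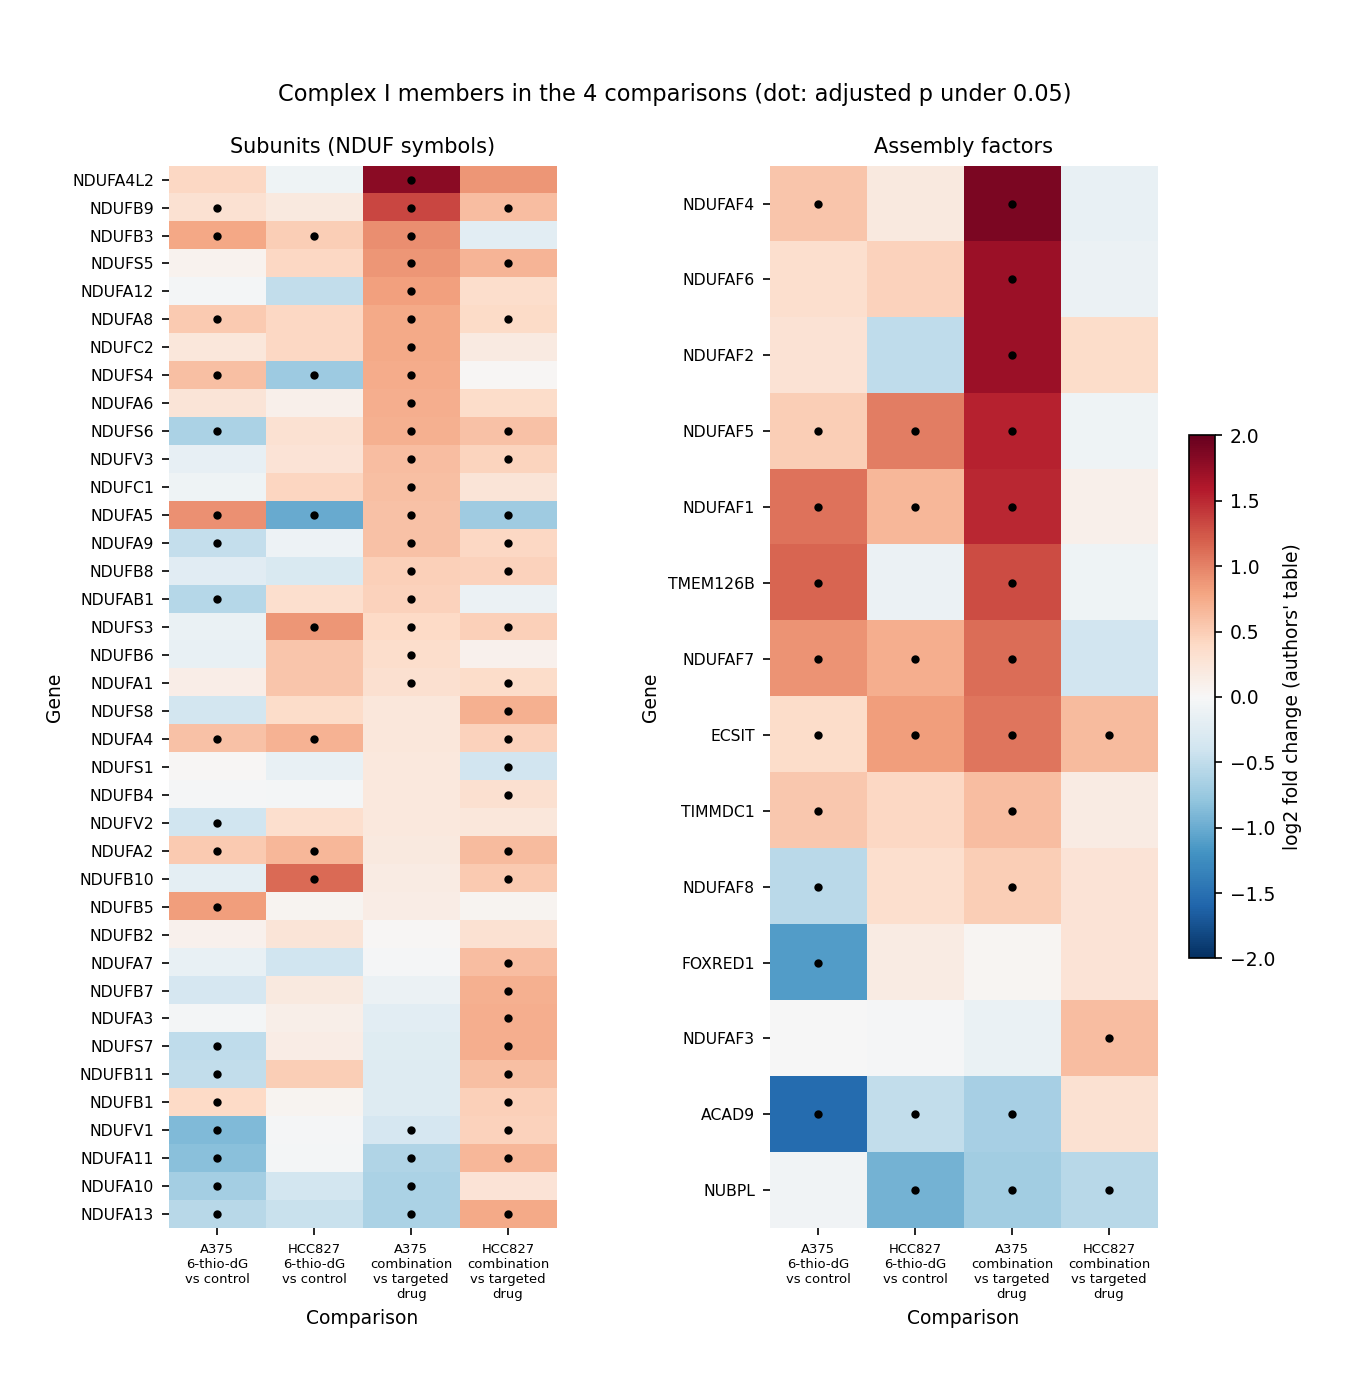
Colour gives the log2 fold change of complex I members (rows, sorted by the A375 combination) in the 4 comparisons (columns), with subunits on the left and assembly factors on the right; a dot marks an adjusted p under 0.05. The strongest colours of rises are those of assembly factors in the A375 combination, from NDUFAF4 at 1.89 downwards, with NDUFA4L2 among the subunits. These assembly factors are paler in the HCC827 combination. The strongest colour of a fall is that of ACAD9 with 6-thio-dG alone in A375, at -1.53.

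With the combination, the contrast between subunits and assembly factors changed sign between the lines. In the A375 combination the median log2 fold change was 0.22 for subunits and 1.10 for assembly factors, a difference of -0.88, with 0.06 for all genes. In the HCC827 combination it was 0.45 for subunits and 0.13 for assembly factors, a difference of 0.32, with -0.004 for all genes. With 6-thio-dG alone the medians were -0.09 for subunits and 0.35 for assembly factors in A375, and 0.19 and 0.27 in HCC827. Those differences were -0.43 in A375 and a small -0.08 in HCC827. The class medians are descriptions over genes, which are not replicates, and have no test. Without NDUFA4 and NDUFA4L2 the subunit medians were 0.22 and 0.42 for the combination in A375 and HCC827, and -0.14 and 0.19 for 6-thio-dG alone. The GC trend was then removed with both genes kept. For 6-thio-dG alone the subunit and assembly factor medians became 0.03 and 0.20 in A375, and 0.20 and 0.29 in HCC827. With trends on exonic length and gene span also removed they were -0.08 and 0.13 in A375, and 0.14 and 0.14 in HCC827.

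**Figure D2:**
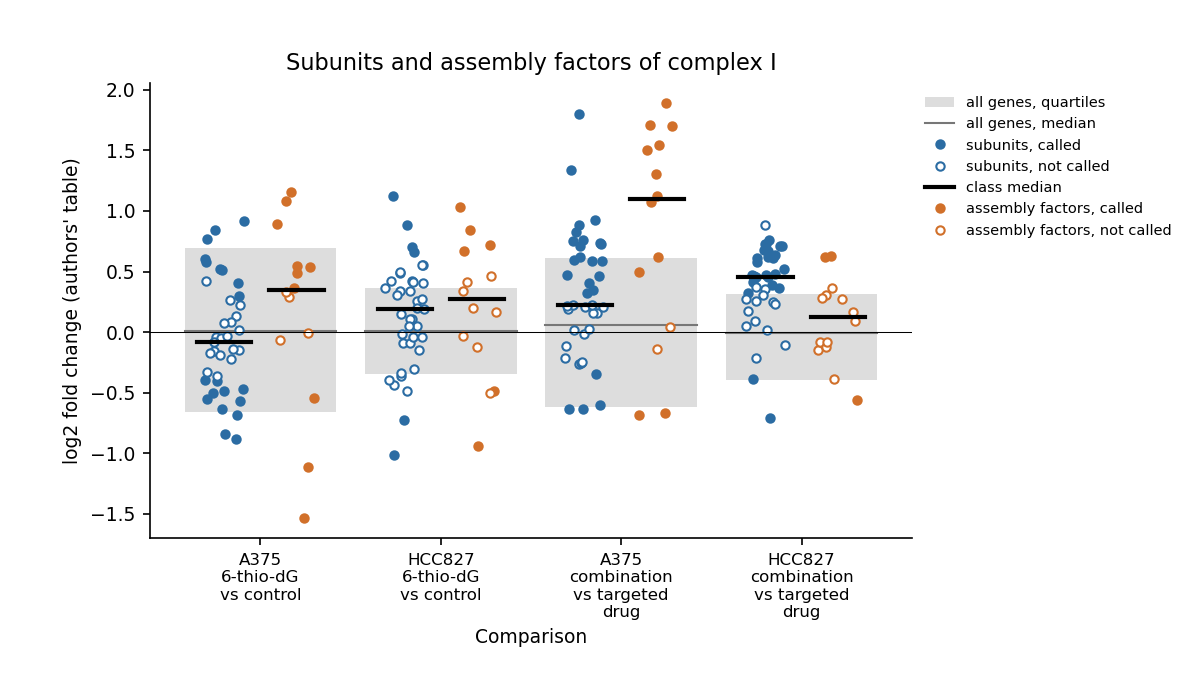
Each point is 1 gene's log2 fold change (vertical axis) in 1 comparison (horizontal axis), filled where called; black lines are class medians and the grey band spans the middle 50% of all 11828 genes. In the A375 combination the assembly factors stand high (median 1.10, subunits 0.22), and in the HCC827 combination the subunits do (median 0.45, assembly factors 0.13).

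Among the factors that build the Q module, 5 of 6 rose and 0 fell in the A375 combination. There 31.2% of all genes rose and 29.3% fell. NDUFAF4, which works with NDUFAF3 on the early Q module, had the highest log2 fold change of all members, 1.89 (SE 0.19, adjusted p = 1.1e-21) in the authors' deposited table. NDUFAF6 followed at 1.71 (SE 0.18, adjusted p = 1.8e-19), NDUFAF5, which hydroxylates an arginine of NDUFS7, at 1.55 (SE 0.18, adjusted p = 1.7e-16) and NDUFAF7, an arginine methyltransferase, at 1.12 (SE 0.15, adjusted p = 2.1e-12) in the authors' deposited table. NDUFAF8, a partner of NDUFAF5, was at 0.49 (SE 0.16, adjusted p = 0.0037) and NDUFAF3 at -0.14 (SE 0.16, adjusted p = 0.51) in the authors' deposited table. With the GC trend removed NDUFAF3 was a called rise there. In the HCC827 combination NDUFAF3 was the 1 factor of the 6 called, at 0.62 (SE 0.16, adjusted p = 0.0011) (GC-adjusted 0.20), and NDUFAF4, NDUFAF5, NDUFAF6 and NDUFAF7 stood at -0.15, -0.08, -0.12 and -0.39 in the authors' deposited table.

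With 6-thio-dG alone fewer of these factors rose in A375 and more of them in HCC827 than with the combination. In A375 NDUFAF7 rose with a log2 fold change of 0.89 (SE 0.15, adjusted p = 1.9e-08), NDUFAF4 with 0.55 (SE 0.18, adjusted p = 0.0042) and NDUFAF5 with 0.48 (SE 0.17, adjusted p = 0.0076) in the authors' deposited table, while NDUFAF8 fell at -0.54 (SE 0.18, adjusted p = 0.0059). The GC-adjusted values were -0.42 for NDUFAF4, a called fall, and 0.004 for NDUFAF5 and -0.12 for NDUFAF8, both uncalled. In HCC827 NDUFAF5 rose with 1.03 (SE 0.24, adjusted p = 2.3e-04) and NDUFAF7 with 0.72 (SE 0.25, adjusted p = 0.021) in the authors' deposited table. As deposited, NDUFAF6 and NDUFAF3 were not called with 6-thio-dG alone in either line. With the GC trend removed NDUFAF3 was a called rise in A375. NDUFAF5 and NDUFAF7, with NDUFAF1, rose in both 6-thio-dG comparisons and in the A375 combination; only the HCC827 combination left them uncalled. Within HCC827 the combination's effect minus that of 6-thio-dG alone was -1.11 ± 0.36 for NDUFAF5 and -1.11 ± 0.37 for NDUFAF7, and GC-adjusted -0.79 (no longer called) and -0.86 (no longer called). Within A375 it was 1.06 ± 0.25 for NDUFAF5.

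In the MCIA complex, 4 of 5 members rose and ACAD9 fell in both A375 comparisons. Of all genes, 31.2% rose and 29.3% fell in the A375 combination, and 31.3% rose and 33.7% fell with 6-thio-dG alone. NDUFAF1, a core MCIA factor, was at 1.51 (SE 0.16, adjusted p = 9.6e-21) in the A375 combination and 1.08 (SE 0.14, adjusted p = 5.1e-14) with 6-thio-dG alone in the authors' deposited table. TMEM126B, a membrane-bound factor, was at 1.30 (SE 0.18, adjusted p = 1.1e-12) in the A375 combination and 1.16 (SE 0.16, adjusted p = 1.8e-12) with 6-thio-dG alone in the authors' deposited table. TIMMDC1 rose with 0.62 (SE 0.10, adjusted p = 5.7e-09) in the A375 combination and with 0.54 (SE 0.11, adjusted p = 7.6e-06) under 6-thio-dG alone in the authors' deposited table. The GC-adjusted value of TMEM126B with 6-thio-dG alone was 0.20, no longer called. With the combination in HCC827 NDUFAF1, TMEM126B and TIMMDC1 were not called, at 0.09, -0.08 and 0.16 in the authors' deposited table; the GC-adjusted value of TMEM126B was 0.62, a called rise. NDUFAF1 rose in HCC827 with 6-thio-dG alone, at 0.67 (SE 0.24, adjusted p = 0.026) in the authors' deposited table.

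ECSIT and ACAD9, which bind each other in the MCIA complex, went opposite ways. ECSIT, also an adaptor of innate immune signalling, rose with 1.08 (SE 0.15, adjusted p = 7.2e-12) in the A375 combination, 0.63 (SE 0.14, adjusted p = 2.4e-04) in the HCC827 combination, 0.37 (SE 0.15, adjusted p = 0.025) with 6-thio-dG in A375 and 0.84 (SE 0.20, adjusted p = 2.2e-04) with 6-thio-dG in HCC827 in the authors' deposited table. The GC-adjusted value of ECSIT was 0.25 in the HCC827 combination, no longer called, while ECSIT remained a called rise in the other 3 comparisons. ACAD9, a relative of the acyl-CoA dehydrogenases of fatty acid oxidation, fell with -0.67 (SE 0.16, adjusted p = 9.7e-05) in the A375 combination and with -1.53 (SE 0.14, adjusted p = 1.0e-25) for 6-thio-dG alone, the lowest value of any member in any comparison in the authors' deposited table. ACAD9 stood at 0.31 (SE 0.14, adjusted p = 0.066) in the HCC827 combination and fell at -0.49 (SE 0.18, adjusted p = 0.027) with 6-thio-dG alone in the authors' deposited table. The effect on ACAD9 in A375 minus that in HCC827 was -0.98 ± 0.21 for the combination and -1.04 ± 0.23 for 6-thio-dG alone. In both lines the combination's effect on ACAD9 was higher than that of 6-thio-dG alone, by 0.86 ± 0.21 in A375 and 0.80 ± 0.22 in HCC827.

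The remaining assembly factors moved in single patterns. NUBPL, which delivers iron-sulfur clusters to complex I, fell with -0.69 (SE 0.22, adjusted p = 0.0049) in the A375 combination, -0.56 (SE 0.20, adjusted p = 0.02) in the HCC827 combination and -0.94 (SE 0.27, adjusted p = 0.003) with 6-thio-dG in HCC827, and stood at -0.07 (adjusted p = 0.83) with 6-thio-dG in A375 in the authors' deposited table. The GC-adjusted value of NUBPL in the HCC827 combination was -0.11, no longer called. NDUFAF2, a late factor whose place NDUFA12 takes in the finished complex, rose with 1.70 (SE 0.14, adjusted p = 8.1e-31) in the A375 combination in the authors' deposited table. NDUFA12 rose there too, at 0.83 (SE 0.13, adjusted p = 2.9e-10) in the authors' deposited table; neither was called in the other 3 comparisons. FOXRED1, another late factor, fell with 6-thio-dG in A375 at -1.12 (SE 0.14, adjusted p = 7.6e-14) and stood at 0.05 (adjusted p = 0.84) in the A375 combination in the authors' deposited table.

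Some nuclear-encoded core subunits, the class that carries the flavin and the iron-sulfur clusters, fell with 6-thio-dG alone in A375. There 0 of them rose, NDUFS1, NDUFS3 and NDUFS8 were uncalled, and 33.7% of all genes fell. With the combination in HCC827, where 17.3% of all genes rose, their calls were mostly rises. With 6-thio-dG in A375 NDUFV1, the flavin-binding subunit that oxidises NADH, fell with -0.88 (SE 0.13, adjusted p = 2.9e-10), NDUFV2, its iron-sulfur partner, with -0.40 (SE 0.12, adjusted p = 0.0017) and NDUFS7, which holds the last cluster of the chain, with -0.51 (SE 0.22, adjusted p = 0.034) in the authors' deposited table. In the HCC827 combination 4 rose and 1 fell. NDUFS7 was at 0.73 (SE 0.16, adjusted p = 9.1e-05), NDUFS8 at 0.71 (SE 0.15, adjusted p = 3.8e-05), NDUFS3 at 0.47 (SE 0.15, adjusted p = 0.0071) and NDUFV1 at 0.46 (SE 0.12, adjusted p = 0.0011), while NDUFS1, the largest iron-sulfur subunit of the N module, fell with -0.39 (SE 0.15, adjusted p = 0.026) in the authors' deposited table. None of these 5 calls in HCC827 held with the GC trend removed, with values from -0.052 for NDUFS1 to 0.37 for NDUFS8. With 6-thio-dG in A375 the falls of NDUFV1 and NDUFV2 held, and NDUFS7, at -0.034, was no longer called.

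Fewer core subunits were called in the other comparisons. With the combination in A375 NDUFS3 rose with 0.41 (SE 0.12, adjusted p = 0.0017) and NDUFV1 fell with -0.34 (SE 0.13, adjusted p = 0.016) in the authors' deposited table, while NDUFS1, NDUFS7, NDUFS8 and NDUFV2 were uncalled, between -0.25 and 0.22. With 6-thio-dG in HCC827 NDUFS3 rose, at 0.88 (SE 0.24, adjusted p = 0.0026) in the authors' deposited table. For NDUFV1, NDUFS7 and NDUFS8 the combination's effect was lower in A375 than in HCC827, with differences of -0.81 ± 0.18, -0.98 ± 0.23 and -0.48 ± 0.19. The GC-adjusted value of NDUFV1 in the A375 combination was -0.10, no longer called, and the differences between lines were -0.26 (no longer called), -0.21 (no longer called) and 0.17 (no longer called).

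By module, the N module had 3 of 7 subunits that rose and 1 that fell in the A375 combination, and 4 that rose and 1 that fell in the HCC827 combination. The Q module had 5 of 9 that rose and 0 that fell in A375, and 5 and 1 in HCC827. The membrane arm had 9 of 20 that rose and 3 that fell in A375, and 13 and 0 in HCC827. Of all genes 31.2% rose and 29.3% fell in the A375 combination, and 17.3% and 17.9% in the HCC827 combination. With 6-thio-dG alone the rises and falls were 2 and 3 (N module), 1 and 3 (Q module) and 5 and 4 (membrane arm) in A375. In HCC827 they were 1 and 1, 1 and 1, and 2 and 0. The shares of all genes there were 31.3% risen and 33.7% fallen in A375, and 14.8% and 14.4% in HCC827. NDUFAB1, the mitochondrial acyl carrier protein that sits in both arms, rose in the A375 combination at 0.47 (SE 0.12, adjusted p = 3.2e-04) and fell with 6-thio-dG alone at -0.57 (SE 0.14, adjusted p = 2.0e-04) in the authors' deposited table.

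Within the membrane arm, NDUFB9 had the highest value in the A375 combination, 1.34 (SE 0.11, adjusted p = 1.1e-35), and rose in the HCC827 combination as well, at 0.61 (SE 0.14, adjusted p = 2.9e-04) in the authors' deposited table. NDUFB10 rose with 6-thio-dG in HCC827 at 1.13 (SE 0.21, adjusted p = 1.6e-06) and in the HCC827 combination at 0.52 (SE 0.16, adjusted p = 0.0053) in the authors' deposited table, and was uncalled in A375; its GC-adjusted value in the HCC827 combination was 0.19, no longer called. NDUFB5 rose only with 6-thio-dG in A375, at 0.84 (SE 0.13, adjusted p = 1.6e-09) in the authors' deposited table; the A375 minus HCC827 difference was 0.79 ± 0.23, and the GC-adjusted values were 0.15 in A375 and -0.065 for the difference, neither called. NDUFA10 fell in A375 with 6-thio-dG alone, at -0.68 (SE 0.14, adjusted p = 2.5e-06), and with the combination, at -0.63 (SE 0.13, adjusted p = 4.9e-06) in the authors' deposited table.

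NDUFA4 and NDUFA4L2, the pair that carries the name without belonging to complex I, had unlike calls. NDUFA4 rose with 6-thio-dG in A375 at 0.58 (SE 0.11, adjusted p = 1.4e-06) and in HCC827 at 0.70 (SE 0.22, adjusted p = 0.0085), and in the HCC827 combination at 0.45 (SE 0.13, adjusted p = 0.0026) in the authors' deposited table. Its GC-adjusted value with 6-thio-dG in A375 was -0.14, uncalled. NDUFA4L2, a paralog known to be induced in hypoxia, rose in the A375 combination at 1.80 (SE 0.35, adjusted p = 7.5e-07) where its implied error was the widest of the members in the authors' deposited table. Leaving both out moved the A375 combination's subunit counts to 18 risen and 4 fallen of 37.

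Of the 53 members, 11 (20.8%) rose in at least 1 comparison and fell in at least 1 other, against 34.9% of all genes of the table. NDUFA5, an accessory subunit of the Q module (GRCh38 chr7:123536997-123558255, GENCODE 29), was called in all 4 and split by line. It rose in A375, at 0.92 (SE 0.19, adjusted p = 2.9e-06) with 6-thio-dG and 0.59 (SE 0.19, adjusted p = 0.0049) with the combination, and fell in HCC827, at -1.01 (SE 0.20, adjusted p = 6.0e-06) with 6-thio-dG and -0.71 (SE 0.20, adjusted p = 0.0023) with the combination in the authors' deposited table. The A375 effect exceeded the HCC827 effect by 1.93 ± 0.27 for 6-thio-dG and 1.30 ± 0.27 for the combination. After removal of the GC trend NDUFA5 was called in 1 of the 4, at -0.82 with 6-thio-dG in HCC827; the differences between lines were 0.87 (still called) for 6-thio-dG and 0.30 (no longer called) for the combination. NDUFA5 has 12 pseudogenes named after it in GENCODE 29, and how reads shared with them were counted is not given in the sources used here.

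NDUFS4, an N-module accessory subunit (chr5:53560633-53683340), rose with 6-thio-dG in A375 at 0.61 (SE 0.13, adjusted p = 1.3e-05) and fell in HCC827 at -0.73 (SE 0.21, adjusted p = 0.0043) in the authors' deposited table. The A375 minus HCC827 difference was 1.34 ± 0.25. Both calls and their directions held after removal of the GC trend, at 0.34 in A375 and -0.64 in HCC827, with a difference of 0.98 (still called). NDUFS6, another N-module accessory subunit, rose in the A375 combination at 0.71 (SE 0.12, adjusted p = 1.4e-08) and fell with 6-thio-dG alone at -0.63 (SE 0.15, adjusted p = 5.0e-05) in the authors' deposited table, a difference of 1.34 ± 0.19 between the comparisons. NDUFA9, a Q-module subunit, did likewise, with 0.59 (SE 0.13, adjusted p = 2.7e-05) for the combination and -0.47 (SE 0.12, adjusted p = 4.0e-04) for 6-thio-dG alone in the authors' deposited table.

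NDUFA13, NDUFA11 and NDUFV1 fell in the A375 combination and rose in the HCC827 combination. NDUFA13, a membrane-arm subunit also known as GRIM-19 (GRCh38 chr19:19515736-19529054), was at -0.63 (SE 0.10, adjusted p = 2.9e-10) in A375 and 0.76 (SE 0.14, adjusted p = 3.4e-06) in HCC827 in the authors' deposited table, a difference of -1.39 ± 0.17. NDUFA11, a membrane-arm subunit (chr19:5891276-5904006), was at -0.61 (SE 0.13, adjusted p = 2.5e-05) in A375 and 0.67 (SE 0.15, adjusted p = 1.2e-04) in HCC827 in the authors' deposited table, a difference of -1.27 ± 0.20. Both also fell with 6-thio-dG alone in A375, NDUFA13 at -0.55 and NDUFA11 at -0.84 in the authors' deposited table. Once the GC trend was removed none of the 3 was called in the combination in either line, and the differences between lines were -0.51 (still called) for NDUFA13 and -0.44 (no longer called) for NDUFA11. The GC-adjusted value of NDUFA13 with 6-thio-dG alone in A375 was -0.014, uncalled.

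**Figure D3:**
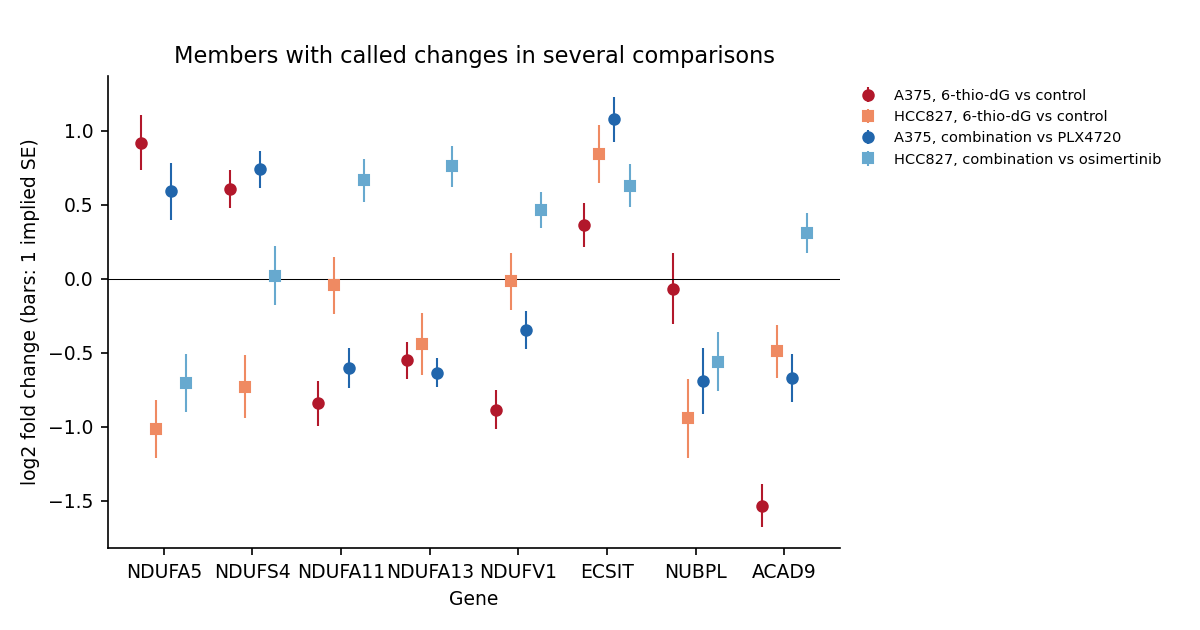
Log2 fold changes (vertical axis) of 8 members (horizontal axis) in the 4 comparisons, with bars of 1 implied SE; circles are A375 and squares HCC827. NDUFA5 lies above 0 in A375 and below 0 in HCC827 under both treatments, ECSIT lies above 0 in all 4, and NDUFA11, NDUFA13 and NDUFV1 lie below 0 in the A375 combination and above 0 in the HCC827 combination.

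Tested directly, the combination's effect differed between the lines for 30 of the 53 members, against 56.5% of the genes tested. Of the assembly factors 8 were higher in A375 and 2 lower, with a median difference of 0.90; of the subunits 8 were higher and 12 lower, with a median of -0.03. Over all genes 28.9% were higher and 27.5% lower (median 0.08). With the GC trend removed 8 assembly factors were higher and 2 lower (median 0.92), of which 6 and 1 were the same genes as before: NDUFAF1, NDUFAF2, NDUFAF4, NDUFAF5, NDUFAF6 and NDUFAF7 remained higher and ACAD9 lower, TMEM126B, TIMMDC1 and NDUFAF3 were no longer called, and ECSIT and NDUFAF8 (higher) and NUBPL (lower) were called instead. After the same step 5 subunits were higher and 7 lower (median 0.12), against 44.4% of all genes called. As deposited, the largest differences were those of NDUFAF4, 2.03 ± 0.32, NDUFAF6, 1.84 ± 0.27, and NDUFAF5, 1.63 ± 0.33; GC-adjusted they were 0.96 (still called), 1.51 (still called) and 0.96 (still called). For 6-thio-dG alone 19 members differed, against 55.1% of all genes tested; 3 subunits were higher and 10 lower in A375, and 3 assembly factors each way. GC-adjusted, 5 subunits were higher and 8 lower, and 2 assembly factors higher and 4 lower.

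**Figure D4:**
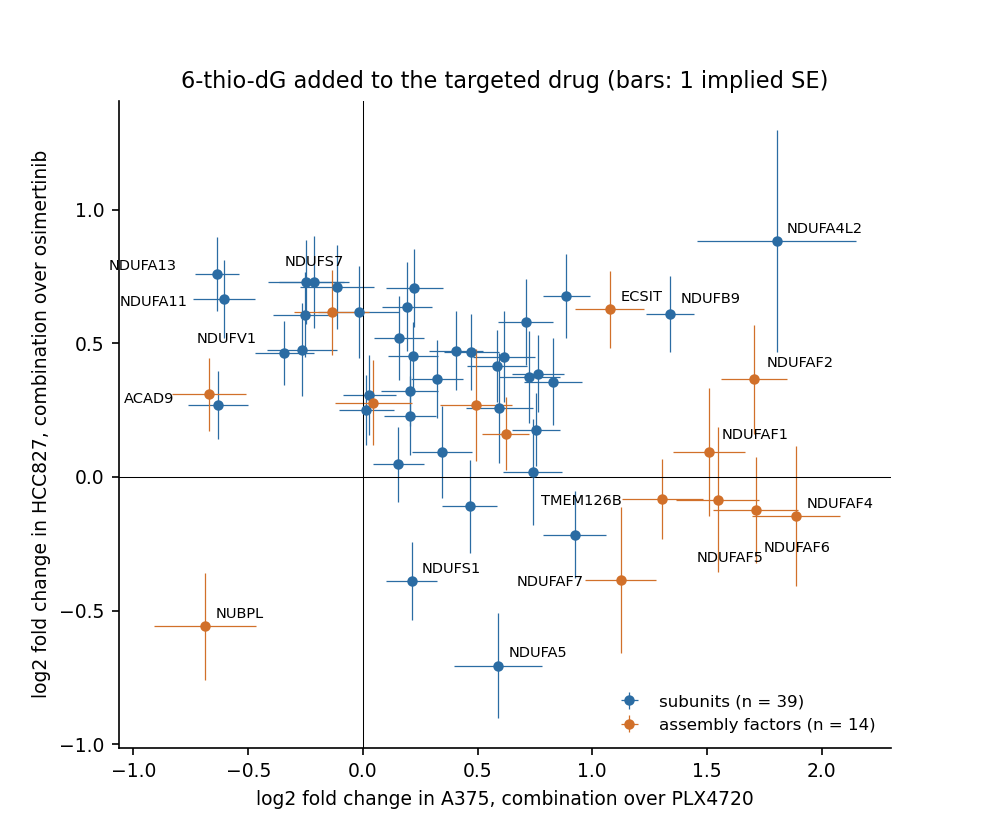
Each point is 1 member, with the log2 fold change of the A375 combination on the horizontal axis and that of the HCC827 combination on the vertical axis, and bars of 1 implied SE. Assembly factors spread to the right along the horizontal zero line (NDUFAF4 at 1.89 in A375 and -0.15 in HCC827), while subunits crowd above it, with NDUFA5 and NDUFS1 among the few below it.

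Within a line, the combination's effect over the targeted drug was set against the effect of 6-thio-dG over control. In A375 26 members were higher with the combination and 3 lower, against 28.5% and 24.1% of all genes tested (52.6% called); these were 18 subunits and 8 assembly factors among the higher ones. NDUFS6 (1.34 ± 0.19), NDUFAF2 (1.41 ± 0.21) and NDUFB9 (1.04 ± 0.16) had the smallest p-values. In HCC827 10 members were higher and 3 lower, against 10.8% and 11.4% of all genes tested (22.3% called). NDUFA13 (1.20 ± 0.25), NDUFA7 (1.01 ± 0.28) and ACAD9 (0.80 ± 0.22) had the smallest p-values there. By the labels these pairs of comparisons share no library.

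The 7 complex I subunits encoded by mitochondrial DNA, which form the proton-pumping core and are outside the symbol rule, fell for the most part in 3 of the 4 comparisons and rose in the HCC827 combination. In the A375 combination 6 fell and 0 rose (median log2 fold change -0.63), and in the HCC827 combination all 7 rose (median 0.59). Of all genes, 29.3% fell and 31.2% rose in the A375 combination, and 17.9% fell and 17.3% rose in the HCC827 combination. With 6-thio-dG alone 6 of 7 fell in A375 (median -0.57) and all 7 fell in HCC827 (median -1.22). The shares of all genes that fell there were 33.7% in A375 and 14.4% in HCC827. MT-ND2 was at -0.66 (SE 0.13, adjusted p = 2.0e-06) in the A375 combination and 0.57 (SE 0.14, adjusted p = 7.9e-04) in the HCC827 combination in the authors' deposited table. MT-ND4 was at -0.55 (SE 0.11, adjusted p = 7.0e-06) with 6-thio-dG in A375 and -1.47 (SE 0.23, adjusted p = 8.4e-09) in HCC827 in the authors' deposited table. These transcripts come from long mitochondrial precursor transcripts and share their source, so their counts are not independent. MT-ND5 was at 0.17 (adjusted p = 0.18) with 6-thio-dG in A375 and MT-ND6 at 0.05 (adjusted p = 0.81) in the A375 combination in the authors' deposited table.

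Other genes of the respiratory chain and its assembly were counted in the same way. The shares of all genes to set beside them were 31.2% risen and 29.3% fallen in the A375 combination, and 17.3% and 17.9% in the HCC827 combination. For 6-thio-dG alone they were 31.3% and 33.7% in A375, and 14.8% and 14.4% in HCC827. Of 34 nuclear subunits of complexes III, IV and V, 17 rose and 6 fell in the A375 combination (median 0.25) and 20 rose and 0 fell in the HCC827 combination (median 0.43). With 6-thio-dG alone 8 rose and 15 fell in A375 (median -0.08) and 2 rose and 1 fell in HCC827 (median 0.11). Complex II genes had 1 of 8 risen and 1 fallen in the A375 combination and 0 called in the HCC827 combination. Among 11 further genes with a role in complex I assembly 6 rose and 1 fell in the A375 combination, and 2 rose and 1 fell in HCC827. CHCHD4, an import receptor that oxidises cysteine-rich subunits, was at 1.70 (SE 0.16, adjusted p = 6.9e-26), and TMEM126A, the paralog of TMEM126B, at 1.33 (SE 0.16, adjusted p = 2.5e-15) in the A375 combination in the authors' deposited table.

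Among 13 iron-sulfur cluster genes 8 rose and 1 fell in the A375 combination (median 0.80), and 2 rose and 0 fell in HCC827 (median 0.17). BOLA3, a late cluster transfer factor, was at 1.81 (SE 0.17, adjusted p = 1.2e-26) and ISCU, the scaffold on which clusters are built, at 1.63 (SE 0.11, adjusted p = 1.5e-45) in the A375 combination in the authors' deposited table. Among 10 regulators of mitochondrial biogenesis 7 rose and 1 fell in the A375 combination (median 0.90), and 1 rose and 2 fell in HCC827 (median -0.21). For both lists the shares of all genes were 31.2% risen and 29.3% fallen in A375, and 17.3% and 17.9% in HCC827. TFB1M was at 1.56 (SE 0.20, adjusted p = 1.4e-13) in A375, and TFAM, which packs and transcribes mitochondrial DNA, at 0.79 (SE 0.21, adjusted p = 6.3e-04) in the A375 combination and -0.81 (SE 0.18, adjusted p = 1.2e-04) in the HCC827 combination in the authors' deposited table. The lists have no set test, and the counts of complex I were not tested against them.

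In both combinations and with 6-thio-dG in A375, the members' values moved with the base composition of their transcripts, as those of the whole table did. With 6-thio-dG in HCC827 the relation was weaker among members than over all genes. Median exonic GC content was 48.5% for subunits, 44.7% for assembly factors and 48.2% for all genes, from GENCODE 29. Across the 53 members, which are genes of the same libraries and not independent, Spearman's rho between log2 fold change and GC content was 0.76 in the HCC827 combination, -0.38 in the A375 combination, -0.55 for 6-thio-dG in A375 and 0.07 for 6-thio-dG in HCC827. Across all genes it was 0.74, -0.25, -0.38 and 0.23. In the HCC827 combination 20 of the 27 members above the median GC content of all genes rose and 0 fell, against 32.4% and 1.76% of all genes there. Of the 26 members at or below it 5 rose and 3 fell, against 2.48% and 34.1%. NDUFA5, whose exons hold 37.0% GC, was among the falls, and NDUFB7, with 65.0%, among the rises.

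In the A375 combination, 17 of the 26 members at or below the median GC content rose and 2 fell, against 38.4% and 21.0% of all genes, and above it 12 of 27 rose and 4 fell, against 24.0% and 38.0%. When the trend on GC content was removed from the whole table, 32 members rose and 4 fell in the A375 combination, against 31.2% and 29.2% of all genes. The class medians were 0.40 for subunits and 0.94 for assembly factors. In the HCC827 combination 12 rose and 0 fell after the same step, 10 of them subunits, against 4.31% and 3.31% of all genes, with medians of 0.37 for subunits and 0.16 for assembly factors. With trends on exonic length and gene span removed as well, 19 rose and 10 fell in the A375 combination, against 29.8% and 28.1% of all genes. Of the subunits 28.2% rose and 20.5% fell there, so that their rises no longer exceeded the share of all genes. The medians were 0.04 for subunits and 0.58 for assembly factors. In the HCC827 combination 11 rose and 0 fell, against 5.11% and 3.03% of all genes. Members are short, with a median exonic length of 2540 bases against 5184 for all genes.

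**Figure D5:**
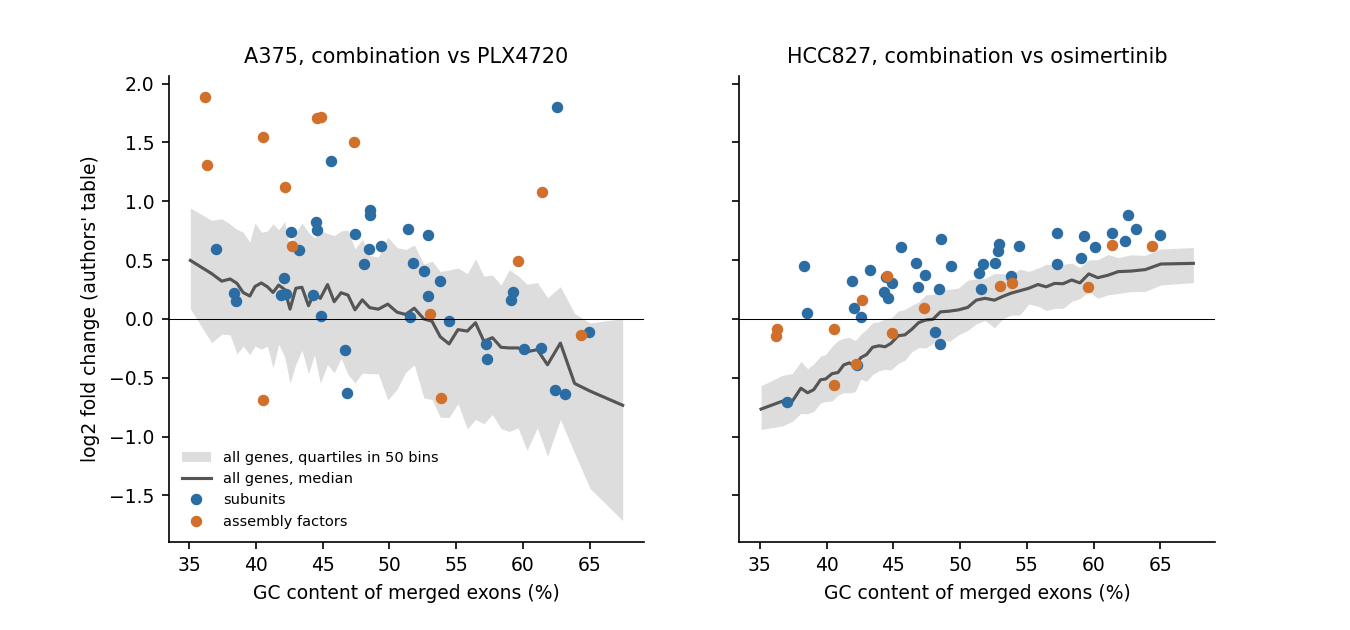
Log2 fold change (vertical axis) against the GC content of a gene's merged exons (horizontal axis, %) for the combination in A375 (left) and HCC827 (right); points are members, and the grey line and band are the median and middle 50% of all genes in 50 bins of GC content. In HCC827 the members follow the rising curve of all genes (rho of 0.76 for members, 0.74 for all genes) and most subunits lie above it; in A375 most assembly factors lie above the band.

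The 7 members on chromosome 19 (ECSIT, NDUFA3, NDUFA7, NDUFA11, NDUFA13, NDUFB7 and NDUFS7) all rose in the HCC827 combination, with a median of 0.71. Of the 896 listed genes on that chromosome 40.0% rose and 2.46% fell there (median 0.34). In the A375 combination 1 of the 7 rose and 2 fell (median -0.21). NDUFA3 was at 0.73 (SE 0.17, adjusted p = 3.2e-04), NDUFB7 at 0.71 (SE 0.16, adjusted p = 1.1e-04) and NDUFA7 at 0.62 (SE 0.17, adjusted p = 0.0025) in the HCC827 combination in the authors' deposited table. None of the 7 was called there once the GC trend was removed. Exons of these 7 genes hold 54.4% to 65.0% GC, against a median of 48.2% over all genes.

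Of the 53 members 30 share exon bases with another gene in GENCODE 29, among them NDUFAF3 with DALRD3 and ACAD9 with KIAA1257, and 19 have at least 1 pseudogene named after them. Whether reads were counted by strand is not given in the sources used here, so values of these genes may include reads of their neighbours.

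Promoters were read for sequences that members moving together share. RefSeq windows (GRCh38.p14) of 250 bases before to 50 after a transcript start were at hand for 44 of the 53 members, as 58 windows, and for 9581 genes of the table. Upstream stretches are shown for NDUFAF4, NDUFAF2 and NDUFAF5, which had among the highest values in the A375 combination, and for NDUFA13 and NDUFS7, which had among the highest called values in the HCC827 combination. The stretches cover the 250 bases before the start at chr6:96897892-96898141 (minus strand), chr5:60944955-60945204, chr20:13784778-13785027, chr19:19515975-19516224 and chr19:1383657-1383906 (plus strand), and are read 5′ to 3′ on the strand of the gene. Capitals mark a match to CCGGAAGT, a motif of ETS factors such as GABPA.
NDUFAF4: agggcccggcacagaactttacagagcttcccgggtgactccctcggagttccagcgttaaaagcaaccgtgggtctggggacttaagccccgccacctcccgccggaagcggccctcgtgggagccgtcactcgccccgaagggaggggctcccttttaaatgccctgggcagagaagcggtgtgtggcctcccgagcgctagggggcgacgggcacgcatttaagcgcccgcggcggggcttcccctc
NDUFAF2: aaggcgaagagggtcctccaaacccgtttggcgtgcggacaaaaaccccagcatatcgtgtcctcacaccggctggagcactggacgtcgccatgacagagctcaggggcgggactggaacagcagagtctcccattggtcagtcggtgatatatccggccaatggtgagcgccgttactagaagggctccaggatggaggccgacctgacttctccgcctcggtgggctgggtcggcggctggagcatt
NDUFAF5: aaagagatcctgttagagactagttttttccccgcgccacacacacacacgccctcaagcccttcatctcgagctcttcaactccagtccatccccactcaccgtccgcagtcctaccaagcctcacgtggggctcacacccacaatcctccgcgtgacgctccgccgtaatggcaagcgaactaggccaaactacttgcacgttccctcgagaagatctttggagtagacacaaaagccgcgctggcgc
NDUFA13: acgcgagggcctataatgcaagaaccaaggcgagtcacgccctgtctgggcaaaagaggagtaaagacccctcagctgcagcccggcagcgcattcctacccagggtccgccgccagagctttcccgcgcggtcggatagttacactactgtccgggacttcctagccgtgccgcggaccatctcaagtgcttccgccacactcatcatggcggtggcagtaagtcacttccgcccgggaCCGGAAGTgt
NDUFS7: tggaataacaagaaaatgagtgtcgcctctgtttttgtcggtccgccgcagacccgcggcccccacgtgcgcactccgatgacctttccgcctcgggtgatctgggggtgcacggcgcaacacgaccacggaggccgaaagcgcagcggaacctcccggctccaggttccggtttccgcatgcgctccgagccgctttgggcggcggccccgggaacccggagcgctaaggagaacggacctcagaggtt

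CCGGAAGT, searched on both strands, stood in windows of 3 members (NDUFA13, NDUFS1 and TIMMDC1), 6.82% of those with a window, against 10.7% of all genes with one. The NRF1 motif, a palindrome whose letters are the capitals shown next, stood in 3 members (NDUFA8, NDUFAF5 and NDUFB4), 6.82% against 2.76% of all genes, and with any base at the sixth position (both strands, which contains the first motif) in 8 members, 18.2% against 14.0%. NRF1 is a known regulator of nuclear genes of the respiratory chain. The matches, in capitals with 10 bases on either side, lie at chr20:13785014-13785043 (plus strand), chr9:122159764-122159793 (minus strand) and chr3:120596167-120596196 (plus strand), and those of NDUFAF5 and NDUFA8 span the transcript start.
NDUFAF5: agccgcgctgGCGCATGCGCacaaaaagcg
NDUFA8: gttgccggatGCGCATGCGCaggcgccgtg
NDUFB4: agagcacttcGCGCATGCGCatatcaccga

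The YY1 motif AANATGGCG stood in windows of 12 of 44 members (27.3%), against 8.62% of all genes with a window, on either strand. It stood in 11 of 32 subunits and 1 of 12 assembly factors, NDUFAF8. Of the 14 matches in these windows, counted per window, 12 began 9 to 42 bases after the transcript start and 2 before it. Most matches therefore lie in the transcribed sequence. Windows of the same gene can overlap, so some sites were counted more than once. The NDUFS1 site stood at 16 and -220 from its starts, and the NDUFAF8 site at 17 and 10. The motif holds the letters ATG, and whether a match is the start of the coding sequence was not tested. In NDUFS7 and NDUFA7 (chromosome 19), NDUFS3 (chromosome 11), NDUFS4 and NDUFS6 (chromosome 5), NDUFAF8 (chromosome 17) and NDUFS1 (chromosome 2, where the match is on the other strand), the match and 10 bases on either side read as follows, with capitals for the match; they are shown because these genes include ones that moved in opposite directions. Their positions are chr19:1383914-1383942, chr19:8321343-8321371, chr11:47579079-47579107, chr5:53560650-53560678, chr5:1801405-1801433, chr17:81239317-81239345 and chr2:206159411-206159439.
NDUFS7: ggccgaggccAAGATGGCGgtgctgtcag
NDUFA7: tcgcggacggAAGATGGCGtccgccaccc
NDUFS3: gcatctgagtAACATGGCGgcggcggcgg
NDUFS4: tgcctgcagcAAGATGGCGgcggtgtcaa
NDUFS6: ccagcggcgcAAAATGGCGgcggcgatga
NDUFAF8: ggacggacctAAGATGGCGgcctccaggg
NDUFS1: tagccgaggcCGCCATATTgaataagcga

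Where called, subunits with this match mostly rose with the combination, as did those without it. The shares of all genes were 31.2% risen and 29.3% fallen in the A375 combination, and 17.3% and 17.9% in the HCC827 combination. For 6-thio-dG alone they were 31.3% and 33.7% in A375, and 14.8% and 14.4% in HCC827. With 6-thio-dG alone in A375 1 of 11 with the match rose and 4 fell, and 5 of 21 without it rose and 6 fell. In HCC827 6-thio-dG alone gave 1 risen and 1 fallen with the match, and 3 and 1 without it. With the combination in HCC827 7 of 11 with the match rose and 1 fell, and 13 of 21 without it rose and 1 fell. With the combination in A375 6 of 11 with it rose and 0 fell, and 9 of 21 without it rose and 4 fell. YY1 itself fell in the A375 combination with a log2 fold change of -0.39 (SE 0.11, adjusted p = 0.0014) in the authors' deposited table. A match describes the letters of a window and shows no binding.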

How the data were processed

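Poly-T-selected mRNA of 36 libraries was sequenced; per the labels' protocols, libraries came from the NEB Next Ultra RNA kit. The submitters' processing notes name FastQC, Trimmomatic and STAR with the build hg38; the sources used here give neither versions nor the counting and test. The authors deposited 1 table of 11828 genes and 4 comparisons with, per the file headers, log2 fold changes with raw p-values and adjusted ones. Library depth is unknown. The design had allowed for counts per library, which the table does not hold, so the authors' own tests were used.

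Calls use the authors' adjusted p at a threshold of 0.05. A fold change divided by the normal z of its p-value gave its implied standard error. Differences between 2 comparisons, read as sharing no library, were tested by a two-sided z test approximate at this sample size, with Benjamini-Hochberg adjustment across the table in 4 families; p-values of 0 cannot enter it, which touched 0 members. Position, merged exons, GC content and span came from GENCODE 29, which matched 11715 genes (99.0%). The GC trend was a lowess curve over 0.3 of the genes (statsmodels 0.14.6), removed so that the median of all genes stayed as deposited; p-values were then taken from the implied errors. Steps were tested on simulated data. Python 3.11.15 and SciPy 1.17.1 were used.

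Members and gene lists were chosen with earlier results of these data known. Named genes were core subunits, called assembly factors, NDUFA4 and NDUFA4L2, the 5 largest rises and falls per comparison, members called in all 4, the 3 smallest p-values per family of differences, the mitochondrially encoded subunits and up to 2 genes of each other list. NDUFA9, NDUFA12, NDUFAB1, TFAM and YY1 were added after their values were seen. The values of 1 member are not reported here by name, though counts include it. Alternatives were stricter thresholds, recomputed adjustment, trend removal and a t reading of the p-values.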

Additional observations from a re-analysis of the deposited data

Results flagged for a closer look

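For 39 values of named members, the log2 fold change differed between the cell lines under the same treatment (two-sided z test on implied errors, Benjamini-Hochberg adjusted over all genes). This is common in the table, where 55.1% of genes differed for 6-thio-dG and 56.5% for the combination. All values are A375 minus HCC827, computed from the authors' deposited table.

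For 6-thio-dG against control, the differences above 0 that were also called with the GC trend removed were 1.93 for NDUFA5, 0.80 for NDUFAF2 and 1.34 for NDUFS4. The others above 0 lost their calls once that trend was removed, and were 0.79 for NDUFB5 (GC-adjusted -0.065), 0.88 for NUBPL (GC-adjusted 0.26) and 1.28 for TMEM126B (GC-adjusted 0.12). Below 0, the differences called both ways were -1.04 for ACAD9, -1.28 for FOXRED1, -1.32 for NDUFB10, -1.02 for NDUFS3, -0.93 for NDUFS6 and -0.74 for NDUFV2. Those below 0 that lost their calls were -0.80 for NDUFA11 (GC-adjusted -0.10), -0.88 for NDUFAF8 (GC-adjusted -0.30), -0.73 for NDUFS8 (GC-adjusted -0.15) and -0.87 for NDUFV1 (GC-adjusted -0.33). As deposited, NDUFA5 and NDUFS4 were called in both lines with opposite signs.

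For the combination against the targeted drug, the differences above 0 that were also called with the GC trend removed were 1.41 for NDUFAF1, 1.34 for NDUFAF2, 2.03 for NDUFAF4, 1.63 for NDUFAF5, 1.84 for NDUFAF6, 1.51 for NDUFAF7 and 0.73 for NDUFB9. The others above 0 lost their calls once that trend was removed, and were 1.30 for NDUFA5 (GC-adjusted 0.30), 0.60 for NDUFS1 (GC-adjusted 0.074), 0.72 for NDUFS4 (GC-adjusted 0.22), 0.46 for TIMMDC1 (GC-adjusted -0.033) and 1.39 for TMEM126B (GC-adjusted 0.32). Below 0, the differences called both ways were -0.98 for ACAD9, -0.90 for NDUFA10 and -1.39 for NDUFA13. Those below 0 that lost their calls were -1.27 for NDUFA11 (GC-adjusted -0.44), -0.94 for NDUFA3 (GC-adjusted -0.40), -0.63 for NDUFA7 (GC-adjusted -0.26), -0.75 for NDUFAF3 (GC-adjusted 0.20), -0.83 for NDUFB7 (GC-adjusted 0.17), -0.98 for NDUFS7 (GC-adjusted -0.21), -0.48 for NDUFS8 (GC-adjusted 0.17) and -0.81 for NDUFV1 (GC-adjusted -0.26). As deposited, NDUFA5, NDUFA11, NDUFA13 and NDUFV1 were called in both lines with opposite signs.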

How the results depend on the processing

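Results as deposited were set against 6 alternative readings. Counts of risen and fallen members were within 1.5 times under recomputed adjustment, and were otherwise as follows. A change of at least 2-fold left 2 risen and 2 fallen for 6-thio-dG in A375, 2 and 1 in HCC827, 10 and 0 in the A375 combination, and 0 and 0 in the HCC827 combination. At an adjusted p of 0.01, 5 rose for 6-thio-dG in HCC827, 1 fell in the HCC827 combination, and 4 differed between combination and 6-thio-dG in HCC827. With the GC trend removed 12 rose and 0 fell in the HCC827 combination, and the medians of the A375 combination were 0.40 for subunits and 0.94 for assembly factors. With the trends on exonic length and gene span removed as well, 10 rose for 6-thio-dG in A375 (assembly factor median 0.13), against 29.3% of all genes. In the A375 combination 19 rose and 10 fell (medians 0.039 for subunits and 0.58 for assembly factors), against 29.8% and 28.1% of all genes. In the HCC827 combination 11 rose and 0 fell, against 5.11% and 3.03%. Reading p-values as t tests with 4 degrees of freedom, which makes the implied errors smaller, gave 29 members that differed between lines for 6-thio-dG and 27 that differed between combination and 6-thio-dG in HCC827. The cause of the other shifts was not tested. For the 2-fold, 0.01 and t readings the shares of all genes are not given here. Those counts therefore describe the members only and cannot be set against all genes.

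Among values of named members called before or after the change, signs turned with the GC trend removed for NDUFA3 (0.34), NDUFA4 (-0.14), NDUFAF3 (0.57) and NDUFAF4 (-0.42) with 6-thio-dG in A375, for NDUFAF3 (0.40) and NDUFB7 (0.45) in the A375 combination and for TMEM126B (0.62) in the HCC827 combination. With all 3 trends removed they turned for NDUFA4 (-0.048), NDUFA13 (0.031), NDUFAF3 (0.55), NDUFAF4 (-0.22) and NDUFS7 (0.10) with 6-thio-dG in A375, for NDUFA4 (-0.45) and NDUFB5 (-0.26) in the A375 combination and for NDUFB7 (-0.051) in the HCC827 combination. A further 38 values changed sign under these alternatives while uncalled both before and after. Of the 140 values of named members, 28 lost and 10 gained a call with the GC trend removed, and 28 and 7 with all 3. These counts leave out the values named above whose sign turned, 7 with the GC trend removed and 8 with all 3. Some of those, such as TMEM126B in the HCC827 combination, changed call as well. No paired analysis was possible because the table holds no values per library; leaving out a replicate, another normalisation and another filter on low values were not run for the same reason.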
